A study of Homo sapiens with 2 samples.

Results

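The data describe 5 genes that respond to the liver X receptors, ABCA1, ABCG1, ABCG4, MYLIP and SREBF1, in human embryonic stem cells. They were chosen by symbol from the 425 rows of the authors' deposited table, and all 5 have a row. The choice was made with the difference between the libraries known, so their own values are a description and carry no test. HES2, an established human embryonic stem cell line, expressed either PB, the control, or PB-Tfcp2l1ΔCP2. By its name the second construct carries Tfcp2l1 without the part called CP2; what PB stands for, the species of the insert, its promoter and whether the cells were 1 clone are not stated in the labels. Both cultures grew for 2 passages in basal medium with 10% KSR, and FGF2 and Activin A were each present at 10 ng/ml. Total RNA of each culture gave 1 library, so that every difference below is between 2 libraries and has no replicate check.

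Liver X receptors are nuclear receptors that are activated by oxysterols, the oxidised forms of cholesterol. They bind DNA with a retinoid X receptor partner at direct repeats of the half-site AGGTCA, and are best studied in macrophages, liver and intestine. Many of their targets act to lower the sterol content of a cell. ABCA1 and ABCG1 encode transporters that export cholesterol to lipoproteins, MYLIP (also called IDOL) encodes a ubiquitin ligase that sends the LDL receptor to degradation, and SREBF1 encodes SREBP-1, the transcription factor that drives fatty acid synthesis. ABCG4 is the closest relative of ABCG1 and is known mainly from the nervous system.

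Of these 5 genes, 4 were higher in the PB-Tfcp2l1ΔCP2 library and ABCG4 was lower. Of the 5, ABCA1 and ABCG1 differed most between the libraries, at 3.67-fold and 4.56-fold higher by reads. The LDL receptor ligase gene MYLIP and the lipid synthesis regulator SREBF1 were both close to 2-fold higher, at 2.08-fold and 2.13-fold. ABCG4, which like ABCG1 carries cholesterol transport in the deposited annotation, was 2.05-fold lower. The transporter genes were thus not all higher. The paralogues ABCG1 and ABCG4 went in opposite directions and changed places in the order of levels.

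The table lists genes that passed thresholds only. Relative to PB, 201 rows were higher and 224 were lower, or 1.1% and 1.23% of the 18250 tests that the FDR values imply. Among the listed rows 47.3% were higher. Since the same contrast chose the 5 genes, nothing is read from their own split of 4 and 1. Expression values are the authors' and have no named unit. Whole reads behind each row were recovered from the deposited p-values, with a ratio of library totals of 1.02. For the 5 genes the recovered reads came to between 22.9 and 23.5 per unit of value and kilobase in the PB library, and to between 23.6 and 24.1 in the other. The values therefore track reads per length, and levels can be set side by side between genes. Intervals are exact 95% intervals and cover counting error only, which leaves out the spread between cultures. TFCP2L1 has no row among those used here, and of 10 pluripotent stem cell markers ZFP42 alone was listed (5.08 in PB, 1.99 in PB-Tfcp2l1ΔCP2), so that the label of the cells was not checked against POU5F1, NANOG or SOX2. Of 7 definitive endoderm markers 4 were listed, all higher, with summed values of 2.56 and 27.3. Most of both sums was CER1 (2.43 and 25.43). FOXA2 (0.01, the lowest value, and 0.37), SOX17 (0.06 and 0.89) and GATA6 (0.06 and 0.61) were below 1 in both libraries. Of 8 fibroblast markers COL1A1 alone was listed (41.6 and 18.0), and none of the macrophage, hepatocyte or neuron markers was. In bulk RNA, more cells of a type and more RNA per cell cannot be told apart. The part of the endoderm markers in the results below was not tested.

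**Figure D1:**
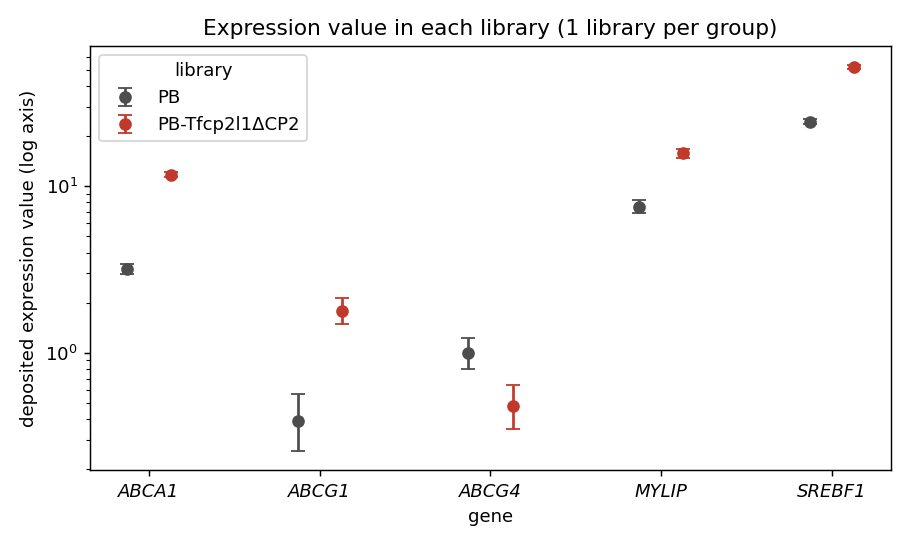
Deposited expression value (vertical, log axis, no named unit) of each gene in the PB library (grey) and the PB-Tfcp2l1ΔCP2 library (red); bars are exact 95% counting intervals scaled to the value. ABCA1, ABCG1, MYLIP and SREBF1 are higher and ABCG4 is lower in the PB-Tfcp2l1ΔCP2 library, and ABCG1 and ABCG4 change places.

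ABCA1 (Gene ID 19, chromosome 9, 10528 bases in the table) moves cholesterol and phospholipid from the plasma membrane onto lipid-poor apolipoprotein A-I. Its expression value was 3.20 in the PB library and 11.7 in the PB-Tfcp2l1ΔCP2 library. These values rest on 792 and 2974 reads, so the intervals of the 2 levels, 2.98 to 3.43 and 11.3 to 12.2, lie far apart. By reads ABCA1 was 3.67-fold higher (3.39 to 3.98). By p-value it ranked 18 of the 18250 tests in the authors' deposited table, with an FDR of 4.28e-281, a statement about reads of 2 libraries. By log2 ratio it was at place 80 of the 201 higher rows.

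The promoter of ABCA1 is printed because it holds the known liver X receptor element of this gene. It is the window of 250 bases before the start in RefSeq (GRCh38.p14), chr9:104928156-104928405 on the minus strand, 5′ to 3′ on the strand of the gene. Capitals mark the stretch most like a direct repeat of 2 copies of AGGTCA with any 4 bases between them, searched on both strands.
ABCA1 promoter: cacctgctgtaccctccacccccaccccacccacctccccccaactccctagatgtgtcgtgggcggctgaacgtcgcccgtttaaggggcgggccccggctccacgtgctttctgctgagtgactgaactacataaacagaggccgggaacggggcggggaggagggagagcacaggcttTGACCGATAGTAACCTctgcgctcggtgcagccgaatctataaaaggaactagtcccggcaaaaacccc
On the opposite strand the capitals read AGGTTACTATCGGTCA, which matches 10 of the 12 fixed letters. The first half-site AGGTTA and the second half-site CGGTCA match AGGTCA at 5 letters each. The stretch begins 69 bases before the start. Of 35116 promoter windows of this length, 2.03% hold a stretch that matches as well. The window also holds 3 copies of GGGCGG (the GC box), 1 of CACGTG (an E-box, present in 6.34% of the windows) and 1 of TATAAA, which begins 31 bases before the start. None of these letters was shown to be bound in these cells, and a match is a description of the sequence only.

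ABCG1 (Gene ID 9619, chromosome 21, 3002 bases) exports cholesterol to mature high-density lipoprotein. It was at 0.39 in the PB library on 27 reads and at 1.78 in the PB-Tfcp2l1ΔCP2 library on 126 reads. The counting intervals of the levels were 0.257 to 0.567 and 1.48 to 2.12. ABCG1 had the largest fold of the 5 genes, 4.56-fold higher, and the widest interval, 2.99 to 7.19. That interval overlaps the interval of ABCA1, so the folds of ABCA1 and ABCG1 were not told apart by counting error. In level these genes stayed apart: per length, ABCA1 was above ABCG1 in both libraries.

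ABCG4 (Gene ID 64137, chromosome 11, 3874 bases) encodes the transporter of the same subfamily. It was at 0.99 in the PB library on 88 reads and at 0.48 in the PB-Tfcp2l1ΔCP2 library on 44 reads. It was 2.05-fold lower by reads (1.41 to 3.01). It has the highest p-value of the 5 genes, with rank 3495 of 18250 by p-value and an FDR of 0.000362 in the authors' deposited table, and it is at place 208 of the 224 lower rows by log2 ratio. With an interval of 99% it was still lower, by 1.26-fold to 3.39-fold. With median-of-ratios scaling, whose factor rests on listed rows only, its difference on the log2(value + 1) scale was -0.0077, close to no difference.

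Set against each other, the fold of ABCG1 was 9.33 times that of ABCG4 by reads. The summed value of the pair was 1.38 in the PB library and 2.26 in the PB-Tfcp2l1ΔCP2 library. ABCG4 made up 71.7% of the sum in the first and 21.2% in the second. Per length, ABCG4 stood 2.54 times above ABCG1 in the PB library, while ABCG1 stood 3.71 times above ABCG4 in the other. The counting intervals of the paralogues did not overlap within either library. Both genes were listed through this same contrast, and the intervals do not allow for that choice. The exchange of places is therefore a description, with no replicate to show the spread between cultures. The longest stretch shared by any transcript of ABCG1 and any of ABCG4 in the basic set of GENCODE release 29 (GRCh38) is 33 bases. No stretch of 50 bases of any of the 5 genes occurs in a transcript of another gene of that set. No other gene of the set overlaps their exons on either strand.

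MYLIP (Gene ID 29116, chromosome 6, 3086 bases) acts after export, on uptake, since its ligase marks the LDL receptor and its relatives VLDLR and LRP8 for degradation. Its value was 7.55 in the PB library on 539 reads and 15.8 in the PB-Tfcp2l1ΔCP2 library on 1149 reads. MYLIP was 2.08-fold higher (1.88 to 2.31), and the intervals of its levels, 6.93 to 8.22 and 14.9 to 16.7, did not overlap. On the log2(value + 1) scale the difference was 0.97, just under 2-fold.

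SREBF1 (Gene ID 6720, chromosome 17, 4417 bases) was the most abundant of the 5 genes in both libraries. Its value was 24.5 in the PB library on 2511 reads and 52.0 in the PB-Tfcp2l1ΔCP2 library on 5468 reads. It was 2.13-fold higher (2.03 to 2.23), the narrowest interval of the 5. Its mean value is at place 1 of the 201 higher rows. The table has 1 row for SREBF1 and does not separate the SREBP-1a from the SREBP-1c transcript; the liver X receptors are known to act on the latter. SREBF1 accounted for 60.3% of the summed rise in value of the 4 higher genes, against 18.7% for ABCA1, 18.0% for MYLIP and 3.05% for ABCG1.

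**Figure D2:**
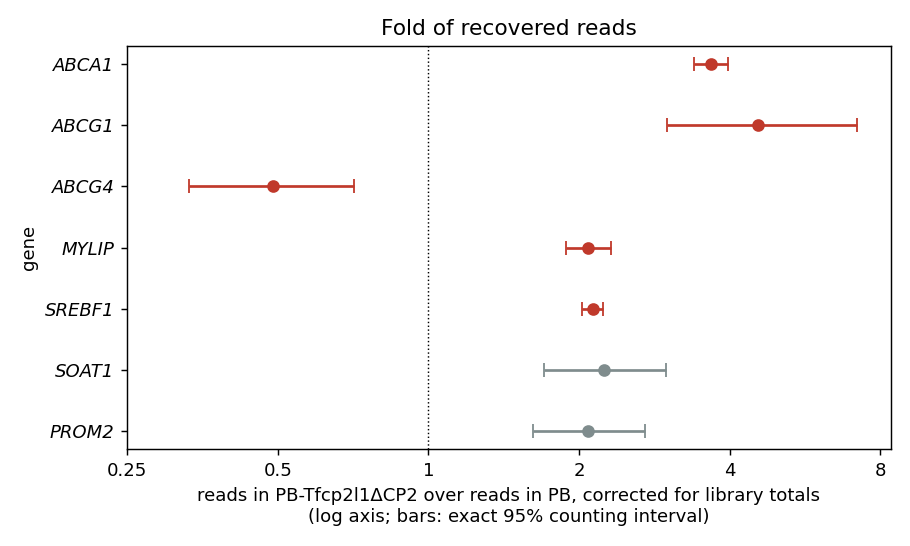
Fold of recovered reads, PB-Tfcp2l1ΔCP2 over PB and corrected for library totals (horizontal, log axis), for the 5 genes (red) and for SOAT1 and PROM2 (grey); bars are exact 95% counting intervals and the dotted line marks no difference. The intervals of ABCA1 and ABCG1 overlap each other, those of MYLIP and SREBF1 overlap each other, and ABCG4 alone lies below 1.

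Counting intervals told some of the folds apart and not others. The interval of ABCA1 lay above those of MYLIP and SREBF1, and its fold was 1.76 times that of MYLIP and 1.72 times that of SREBF1. The folds of SREBF1 and MYLIP differed by a factor of 1.02, with overlapping intervals. In level, the order in the PB library was SREBF1, MYLIP, ABCA1, ABCG4 and ABCG1, and in the PB-Tfcp2l1ΔCP2 library SREBF1, MYLIP, ABCA1, ABCG1 and ABCG4. The intervals of neighbours in each order did not overlap. ABCA1 came closer to MYLIP, from 3.20 beside 7.55 to 11.7 beside 15.8.

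As differences of log2(value + 1), a scale that pulls low genes towards 0, ABCA1 was at 1.60, SREBF1 at 1.06, ABCG1 at 1.00, MYLIP at 0.97 and ABCG4 at -0.43. Of the 4 genes that reached a value of 1 in at least 1 library, 3 were at least 2-fold higher. ABCG1 was exactly at the limit, and with a pseudocount of 5 only ABCA1 was at least 2-fold higher. ABCG4, the lower gene, was below 1 in both libraries and did not enter. ABCG1, at 0.39 and 1.78, entered through its higher library alone, so for this gene filter and call are not independent. Without the filter the count was still 3. Among the 291 rows that passed the same filter, 16.8% were at least 2-fold higher, and the same share was at least 2-fold lower. The median difference of the 4 genes was 1.03 on this scale. It was 0.94 over the higher rows among the 291, and -0.61 over all of the 291. As the 4 genes are all higher, the -0.61 is no like comparison for them. They were chosen with this contrast known, so their count and their median carry no test. In the plain log2 ratio, the median of the 4 higher genes was 1.48 beside 1.62 for the 201 higher rows.

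**Figure D3:**
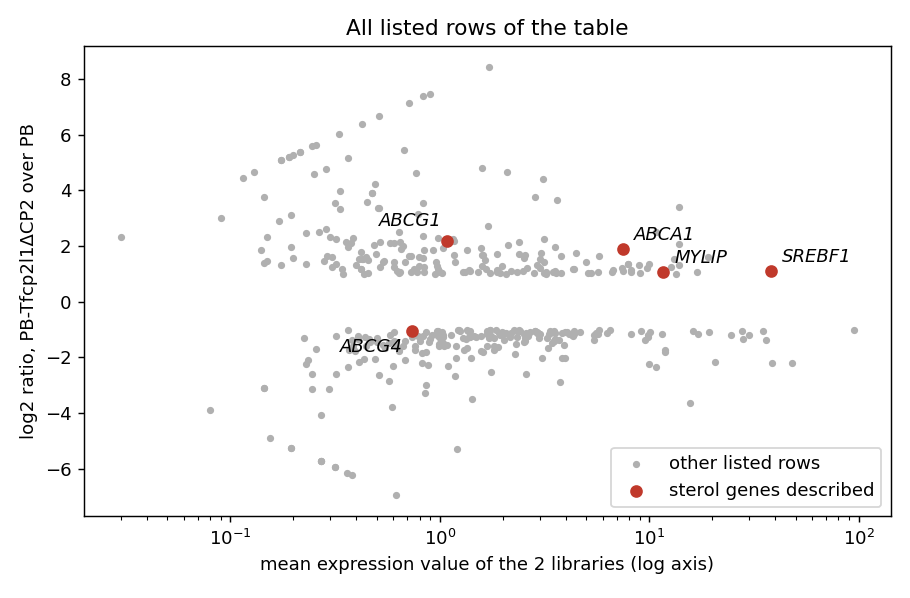
Log2 ratio of the deposited values (vertical) against the mean value of the 2 libraries (horizontal, log axis) for the 425 listed rows (grey) and the 5 sterol genes (red). SREBF1 is the most abundant of the higher rows, ABCG1 and ABCG4 lie among the low values, and no listed row lies between -1 and 1.

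The SREBF1 and MYLIP promoters are printed as those of the other higher genes in the RefSeq table, each 250 bases before the start in GRCh38.p14. SREBF1 is at chr17:17836987-17837236 on the minus strand and MYLIP at chr6:16128836-16129085 on the plus strand. Capitals mark GGGCGG on either strand, the binding site of Sp1-type factors.
SREBF1 promoter: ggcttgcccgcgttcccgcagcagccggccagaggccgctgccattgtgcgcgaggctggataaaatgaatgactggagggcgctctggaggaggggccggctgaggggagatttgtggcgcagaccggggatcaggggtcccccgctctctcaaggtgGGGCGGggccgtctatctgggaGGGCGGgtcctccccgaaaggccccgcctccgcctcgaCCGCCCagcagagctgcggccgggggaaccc
MYLIP promoter: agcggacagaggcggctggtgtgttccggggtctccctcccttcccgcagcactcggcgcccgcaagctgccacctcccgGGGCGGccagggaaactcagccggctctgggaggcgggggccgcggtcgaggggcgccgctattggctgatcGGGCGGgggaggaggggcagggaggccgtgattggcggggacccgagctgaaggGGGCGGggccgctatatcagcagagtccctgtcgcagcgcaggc
Both windows hold GGGCGG 3 times, as does that of ABCA1. Over all windows 42.6% hold it at least 1 time and 13.9% hold it 3 times or more. Of the windows at the starts of ABCG4, 1 holds it 1 time and the other 2 times. MYLIP also has CCAAT 2 times, a pentamer found in 32.0% of the windows. The best match to the direct repeat was 8 of 12 letters in MYLIP and in both ABCG4 windows, which 66.1% of all windows reach, and 7 of 12 in SREBF1. A pair of CCAG with any 6 bases between, a pattern of the kind bound by CP2-type factors and held by 3.27% of all windows, was in none of the 5 windows. Elements further away or at other starts were not searched, and the absence of these letters here says nothing of the factors. ABCG1 was not matched in the promoter table.

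**Figure D4:**
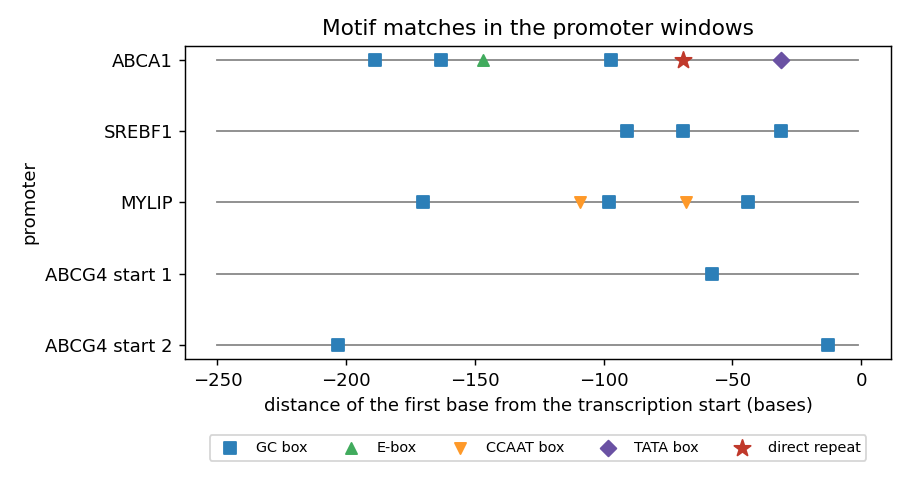
Position of motif matches in the 250 bases before the start of ABCA1, SREBF1, MYLIP and both starts of ABCG4 (horizontal, distance of the first base of the match from the start in bases). The direct repeat is drawn for ABCA1 alone, where it begins 69 bases before the start. The other windows had weaker matches, and other starts were not searched. ABCA1, SREBF1 and MYLIP each hold 3 GC boxes.

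SREBF1 and ABCA1 are also linked by a microRNA. MIR33B lies within SREBF1, and miR-33 is known to lower ABCA1. In GENCODE release 29 all 3 basic transcripts of SREBF1 span MIR33B on the same strand, and none has it in an exon. The mature sequences (RefSeq, GRCh38.p14) are shown with the seed, bases 2 to 8, in capitals; miR-33a, from the gene MIR33A, has the same seed.
hsa-miR-33b-5p: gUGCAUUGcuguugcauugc
hsa-miR-33a-5p: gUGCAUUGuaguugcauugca
The longest annotated 3′ untranslated region of ABCA1, of 3313 bases, holds the complement of the seed, CAATGCA, 4 times. The sites are shown in the DNA letters of the transcript with that complement in capitals, and they begin 135, 140, 150 and 1475 bases after the stop codon.
ABCA1 site 1: actgatactattCAATGCAatgcaat
ABCA1 site 2: tactattcaatgCAATGCAattcaat
ABCA1 site 3: tgcaatgcaattCAATGCAatgaaaa
ABCA1 site 4: ttttaattgcaaCAATGCAaaagcca
The first 3 sites lie in 1 cluster, and the first and second overlap. Among 18957 genes, 0.0633% had 4 or more such matches, and 0.0992% of the 2017 with a region within 20% of the length of that of ABCA1. ABCG1, ABCG4, MYLIP and SREBF1 had none, where 8.50% of all regions had at least 1. MIR33A is on chromosome 22, outside SREBF1. Mature miR-33 was not measured here. SREBF1, which hosts MIR33B only, and ABCA1 were both higher in the PB-Tfcp2l1ΔCP2 library, and a part of miR-33 in this was not tested.

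Other genes of the pathway were counted from lists. Of 20 liver X receptor responsive genes, the 5 described were listed, 4 higher and 1 lower. As the 5 were chosen from the listed rows, this count was fixed in advance and carries no test. The other 15, among them APOE, LPCAT3, SCD and NR1H3, had no row among those used here. None of 9 genes for the receptors and their partners was listed, nor any of 9 genes of oxysterol formation and removal, 20 of cholesterol synthesis, 17 of fatty acid synthesis, or 12 of lipoprotein uptake. Their levels are not known from the rows used here, and differences of less than 2-fold would not have been listed. The largest FDR in the authors' deposited table was 0.000984, so larger differences that rest on few reads could be missing too. Of 7 genes of SREBP processing SREBF1 alone was listed.

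Of 22 genes of sterol transport and storage 1 was listed, SOAT1 (Gene ID 6646), which encodes the enzyme that esterifies cholesterol for storage. SOAT1 was at 0.46 in the PB library on 75 reads and at 1.04 in the PB-Tfcp2l1ΔCP2 library on 172 reads, 2.24-fold higher (1.70 to 2.98). Over all 18250 tests, 2.33% were listed in either direction. That share is no like comparison for the list of liver X receptor responsive genes, which holds the chosen genes.

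The functional annotation deposited with the table groups the same genes. Sterol metabolic process is given for 4 rows, ABCA1, ABCG1, SOAT1 and SREBF1, and sterol homeostasis for ABCA1, ABCG1, MYLIP and SOAT1, all higher. Cholesterol transport is given for 3 rows, ABCG1, ABCG4 and SOAT1, of which ABCG4 was lower. Apart from SOAT1 these rows are the chosen genes, so their directions repeat the choice and carry no test. Among all listed rows 47.3% were higher.

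Rows most like each gene were sought by the distance between pairs of log2 values, over 2 libraries only. GLIPR1L1 (0.41 and 1.77) and GAD2 (0.40 and 1.92) were nearest to ABCG1, at distances of 0.073 and 0.12. ERO1B (1.00 and 0.50) and ZC3H6 (1.05 and 0.46) were nearest to ABCG4, at 0.061 and 0.10. For MYLIP these were CYR61 (7.53 and 18.0) and KIAA0101 (8.91 and 17.9), at 0.19 and 0.30. ABCA1 was nearest to AMOTL2 (2.82 and 8.72) and to BOLA2B (4.44 and 11.3), at 0.47 and 0.48. BOLA2B has a near-identical copy, and how reads were divided between the copies is uncertain. SREBF1 had no near neighbour. EEF1A2, the nearest row described here, was lower in the PB-Tfcp2l1ΔCP2 library (37.4 and 18.1) and lay at a distance of 1.64.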

How the data were processed

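Total RNA of 1 PB and 1 PB-Tfcp2l1ΔCP2 culture was sequenced on BGISEQ-500, per the labels' protocols. Per the submitters' processing notes, Bowtie 0.12.2 and hg19 were used, in no stated role; for the counter and the test, nothing is given in the sources used here. The authors' expression values are a signal of unnamed unit, lowest 0.01. The deposited log2 fold change is the log2 ratio of these values. The p-values and FDR, also deposited, set the reads of 1 library against the other; the deposited gene length is another column, in bases, per the file headers. Members, lists and rules were chosen with earlier results of these data known.

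Whole reads were recovered (Python 3.11.15, scipy 1.17.1) by inverting a 2-sided Audic and Claverie test: the pair of reads had to give the deposited p-value within a relative 5e-06, lie between 8 and 40 reads per unit of value and kilobase, and have a ratio within 10% of the value ratio beside rounding. This gave 1 pair for 399 of 425 rows, the 5 genes among them. No pair was found for 21 rows. The formula is inferred, not stated. The search was tested on data simulated from the lengths and values of this table, with a ratio of library totals set to 1.1. The p-values came from the same formula. It returned the exact pair for all 100 genes with a 3-fold change. It also did so for all 96 of another set, with either an 8-fold change or no PB read. Smaller folds, such as those of ABCG4, MYLIP and SREBF1, were not simulated, and values were capped below those of SREBF1. The number of tests, 18250, is the smaller of 2 that give whole FDR ranks. Folds are read ratios over the ratio of library totals with Clopper-Pearson intervals. The planned scale is log2(value + 1), for values of 1 or more, called at 2-fold, with no test. The genes named were the 5 members, listed members of the sterol lists and the 2 nearest rows per member; some of these are not reported here. RefSeq held the Gene ID of all 368 rows that carry a symbol. The alternatives were other pseudocounts, filters and scalings.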

Additional observations from a re-analysis of the deposited data

How the results depend on the processing

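No paired analysis was possible because there was a single library per group, and none could be left out. Directions held for all 5 genes under every setting run. Log2 differences moved most with the pseudocount for ABCG1 and ABCG4, and with median-of-ratios scaling for ABCA1, MYLIP and SREBF1. Without a pseudocount they were 1.88 for ABCA1, 2.19 for ABCG1 and -1.04 for ABCG4, and by recovered reads 1.88, 2.19 and -1.03, so that the ABCG1 to ABCG4 gap of 1.43 became 3.23 and 3.22. A pseudocount of 0.5 gave 1.73 for ABCA1. With one of 5, ABCA1 was at 1.03, ABCG1 at 0.33, MYLIP at 0.73 and SREBF1 at 0.95, which left 1 gene at least 2-fold higher in place of 3. After scaling to the summed value of listed rows ABCA1 was at 1.92, MYLIP at 1.29 and SREBF1 at 1.39. With median-of-ratios scaling ABCA1 was at 2.57, ABCG1 at 1.74, MYLIP at 1.95, SREBF1 at 2.07 and ABCG4 at -0.0077, close to no difference. These scalings shift log2 ratios by 0.34 and 1.03 and rest on listed rows only, none of which lies within 2-fold, so they are no check of depth. With no pseudocount and no filter, a setting chosen after seeing the data, 1 gene (ABCG4) was at least 2-fold lower; it was 0 otherwise. Depth limits ABCG1 and ABCG4 most, at 27 and 44 reads in their lower libraries.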

Other observations

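The word sterol or cholesterol occurs in the deposited annotation of 8 rows. Relative to PB, 6 were higher and 2 were lower. Besides the 5 genes and SOAT1 these are PROM2 and SCARF1, which were in no list and were chosen after their values were seen. PROM2, a relative of the cholesterol-binding membrane protein prominin-1, was at 0.84 in the PB library on 90 reads and at 1.74 in the PB-Tfcp2l1ΔCP2 library on 192 reads, 2.09-fold higher (95% counting interval 1.62 to 2.71). SCARF1, a scavenger receptor gene that takes up modified LDL, was at 1.42 and 0.58; its reads were not recovered, and the ratio of its values was 2.45-fold lower. Among the 8 rows, ABCG4 and SCARF1 were thus the lower ones.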
